A study of Mus musculus with 12 samples.

Results

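The 7 rows RP23-8J15.1, RP23-8J15.2, RP23-8J15.3, RP23-8J15.4, RP23-8J15.5, RP23-8J15.7 and RP23-8J15.8 are pseudogenes annotated on mouse chromosome 1 and named after the genomic clone that holds them. They were taken by gene name from a table of 35275 genes. They were selected on measured values, the levels of these rows in stressed and control males with one library left out, so that contrast is described here and not tested. The sequences showed that 6 of the 7 are copies of mitochondrial genes, and that RP23-8J15.8 is not.

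RNA sequencing was done on ileum tissue (the distal small intestine) taken from C57BL/6 pups at postnatal day 14. Stressed males and stressed females were the offspring of dams restrained for 2 h daily between gestational days 7 and 19. Control males and control females were born to dams left undisturbed in their home cages. Each of the 4 groups held 3 libraries, and each of 3 stressed and 3 control dams gave 1 male and 1 female, so a library is named by its dam's number and littermates of opposite sex share a number. The dam is the unit that was stressed, the labels name no allele or drug, and the p-values measure the spread between single pups of different dams.

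Mitochondria carry a small circular genome that encodes core parts of the respiratory complexes and of the ATP synthase. Fragments of that genome have been inserted into the nuclear chromosomes during evolution, and such nuclear mitochondrial sequences are generally not translated, because the mitochondrial genetic code differs from the nuclear one. A recent insertion stays nearly identical to its source, so a short read from such a stretch can align equally well to the nucleus and to the mitochondrial genome. In gut epithelium mitochondrial transcripts are abundant, since absorption consumes much ATP.

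All 6 copies lie on the minus strand of chromosome 1 in GRCm38, in the order and orientation that their counterparts have in the mitochondrial genome. RP23-8J15.1 (ENSMUSG00000101249, chr1:24615706-24616197) holds the end of mt-Co1, the catalytic subunit of cytochrome c oxidase, over 483 bases. RP23-8J15.2 (ENSMUSG00000102070, chr1:24614885-24615565) matches mt-Co2 and RP23-8J15.4 (ENSMUSG00000101111, chr1:24613189-24613971) matches mt-Co3, which encode the other mitochondrial subunits of that oxidase. RP23-8J15.3 (ENSMUSG00000100862, chr1:24613974-24614651) matches mt-Atp6, a membrane subunit of ATP synthase. RP23-8J15.5 (ENSMUSG00000101939, chr1:24612775-24613119) matches mt-Nd3, and RP23-8J15.7 (ENSMUSG00000100131, chr1:24611535-24612410) matches the first 876 of the 1378 bases of mt-Nd4. Both mt-Nd3 and mt-Nd4 encode subunits of complex I, which takes electrons from NADH. Between these last 2 copies lies Gm10222, a row outside the set, which matches mt-Nd4l.

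**Figure D1:**
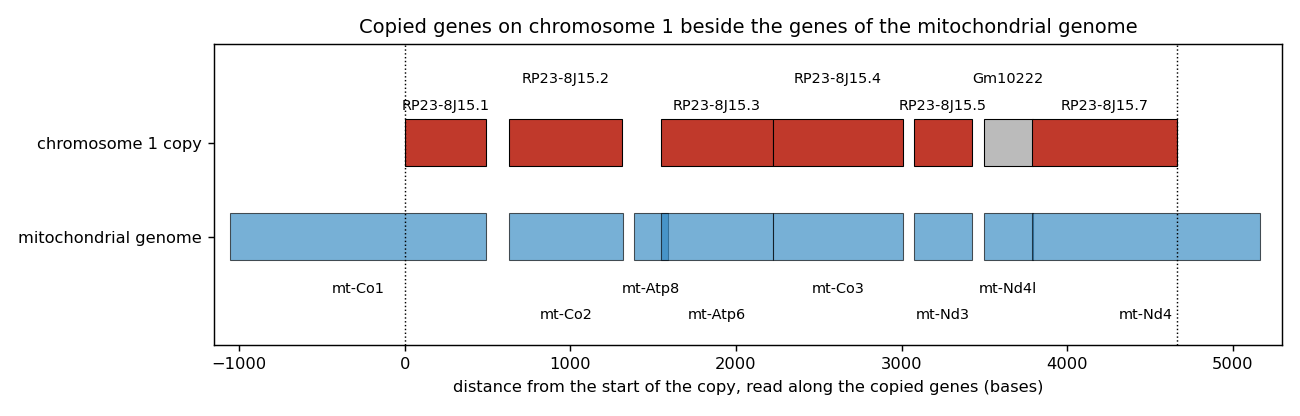
Position of the copies on chromosome 1 (upper row, red for the 6 rows described and grey for Gm10222) and of the mitochondrial genes (lower row), in bases from the start of the copy. The annotated copies span 4663 bases, dotted lines mark the ends of that span, and it cuts into mt-Co1 and mt-Nd4. The span includes 9 bases of RP23-8J15.1 that did not align. Positions relative to the mitochondrial genome shift by 1 base within it. The bases between the annotated copies were not compared.

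The sequences below are the first 60 bases of 3 copies and of RP23-8J15.8, each above the matching bases of its closest gene, read 5′ to 3′ from the GENCODE M21 transcripts of GRCm38. They are shown because they hold every base at which a copy differs from its mitochondrial gene. Capitals mark those differences.
RP23-8J15.1: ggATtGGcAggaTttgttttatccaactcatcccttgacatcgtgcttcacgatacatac
mt-Co1: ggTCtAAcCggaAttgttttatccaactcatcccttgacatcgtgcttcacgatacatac
RP23-8J15.2: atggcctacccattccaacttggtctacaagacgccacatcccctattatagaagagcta
mt-Co2: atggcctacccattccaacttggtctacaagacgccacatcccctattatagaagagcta
RP23-8J15.5: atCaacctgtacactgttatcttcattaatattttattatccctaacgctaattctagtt
mt-Nd3: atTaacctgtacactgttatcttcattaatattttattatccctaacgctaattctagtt
RP23-8J15.8: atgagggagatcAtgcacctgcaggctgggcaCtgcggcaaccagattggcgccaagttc
Tubb4b: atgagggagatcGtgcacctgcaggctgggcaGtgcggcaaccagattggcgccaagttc

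Over 3846 aligned bases the 6 copies differed from the mitochondrial genes at 2 bases. The substitution in the aligned part of RP23-8J15.1 was A1066T and that of RP23-8J15.5 was T3C, with positions counted from 1 at the 5′ end of the mitochondrial gene. The first 9 bases of RP23-8J15.1 fell outside the alignment, at the edge of the copied stretch. RP23-8J15.2, RP23-8J15.3, RP23-8J15.4 and RP23-8J15.7 had no difference over their whole length. Any stretch of 50, 100 or 150 bases of these 4 copies also occurred in the mitochondrial gene. Of such stretches, 13 in RP23-8J15.1 and 3 in RP23-8J15.5 did not, at each of the 3 lengths. For nearly all stretches of these lengths the bases therefore do not tell the nuclear copy from the mitochondrial gene. How the authors' counting treated reads that align to both places was not stated in the labels or file headers.

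RP23-8J15.8 (ENSMUSG00000099997, chr1:24594087-24595423) did not match the label of a mitochondrial copy. It had 0 alignments to mitochondrial genes and 96.3% identity with Tubb4b, which encodes a beta-tubulin, and GENCODE M21 names it Tubb4b-ps2. It lies 16111 bases from the other 6. It had 2, 1 and 0 reads in stressed males, 0, 1 and 0 in control males, 0, 0 and 0 in stressed females and 3, 0 and 2 in control females. That is at or below the 3 reads that a count of 0 allows in every library, and the row did not pass the filter on low counts. No difference between groups was detectable for it at this depth. The other 6 rows passed the filter.

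Library totals ran from 16423523 to 22975526 counts. Reads of the 13 mitochondrial protein-coding genes were 2.18% of all counts for stressed male 1, 1.16% for stressed male 3, and 3.01% to 4.59% for the other 10 libraries. The noncoding RNA row Yam1 took 1.39% and 4.13% in those libraries and 1.00% in control male 1, against 0.171% to 0.5% in the rest. Of the listed enterocyte markers, Cubn, Vil1, Cdh17 and Epcam were at 416 CPM or more in all libraries. Smooth muscle Myh11, Acta2, Tagln and Cnn1 were at 137 CPM or more. The listed ileal bile acid genes were lower and varied more, with 0.716 to 608 CPM (median 65.4) for Fabp6 and 0.195 to 6.43 CPM (median 2.76) for Slc10a2. Both were lowest in control male 3, and there Fabp1 and Gata4 of the upper small intestine had 1400 and 135 CPM. Control female 3, its littermate, had 168 CPM of Fabp1 and 51.0 CPM of Gata4, and the other libraries at most 0.638 and 4.06 CPM. Markers of exocrine pancreas, liver, skeletal muscle and brown fat reached 44.2 CPM at most, and Cela2a, Prss2, Cpa1 and Ucp1 were at 0 in all libraries. Haemoglobin genes of red blood cells, Hbb-bs and Hba-a1, had 40.3 to 110 CPM. CPM are counts scaled to a common library size after TMM normalisation.

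The copies were well above the floor of detection. The 6 rows together held 91449 reads. By length, the median over the 12 libraries was 160 FPKM for RP23-8J15.1, 147 FPKM for RP23-8J15.3, 146 FPKM for RP23-8J15.2 and 111 FPKM for RP23-8J15.4. RP23-8J15.7 had a median of 30.2 FPKM and RP23-8J15.5 of 26.9 FPKM. Neighbours in this order were not always apart: RP23-8J15.1 was above RP23-8J15.3, RP23-8J15.3 above RP23-8J15.2, and RP23-8J15.7 above RP23-8J15.5 in 8 of 12 libraries each. RP23-8J15.2 was above RP23-8J15.4, and RP23-8J15.4 above RP23-8J15.7, in 12 of 12. Rows that lie within 4663 bases of each other thus had median levels from 26.9 to 160 FPKM.

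The mitochondrial genes inside the copied stretch had levels like those of the copies and far from the rest of their own genome. Per length, mt-Co2, mt-Atp6, mt-Co3, mt-Nd3 and mt-Nd4l had medians of 158, 92.3, 115, 74.9 and 19.5 FPKM. The genes wholly outside it, mt-Nd1, mt-Nd2, mt-Nd5, mt-Nd6 and mt-Cytb, had medians between 2140 and 6150 FPKM. Those cut by its ends, mt-Co1 and mt-Nd4, had medians of 9320 and 1520 FPKM, and 31.3% and 63.6% of their lengths lie inside. The 6 genes inside held 0.795% of mitochondrial reads in the table and the 5 outside held 53.8%. mt-Atp8, placed inside by its position only, had 4 reads in all libraries together. These levels are a description of the table; the part that shared reads have in them was not tested.

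**Figure D2:**
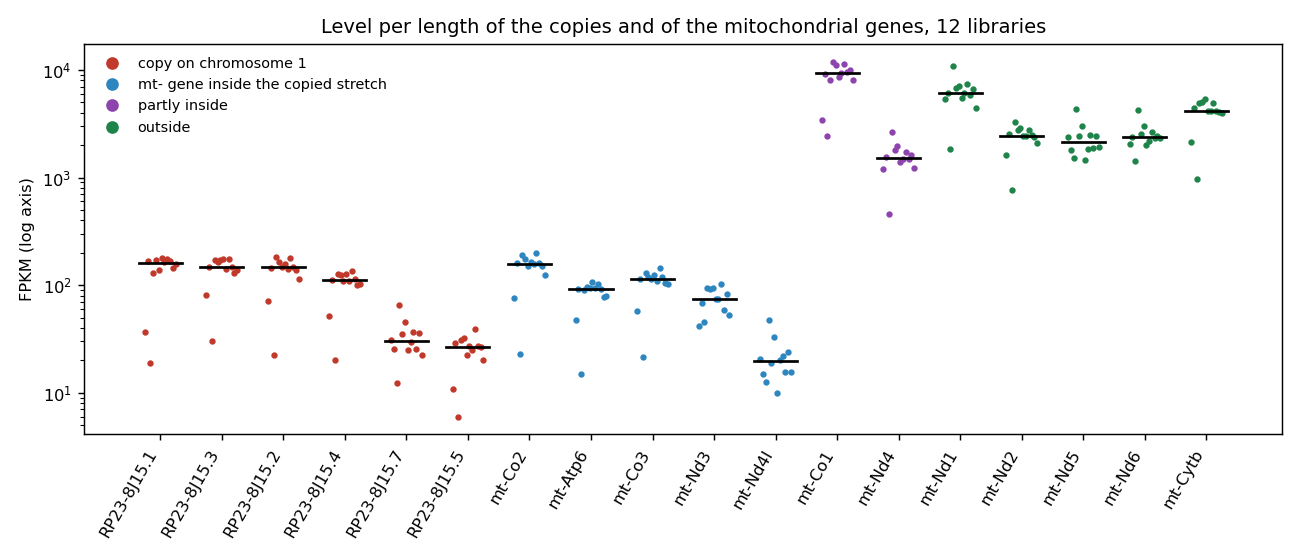
FPKM (log axis) in each of the 12 libraries for the 6 copies and for the mitochondrial genes by their place relative to the copied stretch, with a line at the median. The copies and the genes inside the stretch have medians of at most 160 FPKM, and the genes outside it of at least 2140 FPKM. mt-Atp8, with a median of 0.0 FPKM, is left off the log axis.

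Of the cytochrome c oxidase copies, RP23-8J15.1 had 18.2, 80.7 and 9.72 CPM in stressed males 1, 2 and 3, against 64.0, 83.1 and 78.2 CPM in control males 1, 2 and 3. It had 83.0, 78.5 and 84.6 CPM in stressed females, against 78.0, 69.7 and 80.6 CPM in control females. Stressed males 1 and 3 were below every other library, and stressed male 2 was within the control males.

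RP23-8J15.2 had 48.6, 96.3 and 15.9 CPM in stressed males, against 124, 110 and 114 CPM in control males. In females it had 102, 93.1 and 118 CPM in stressed and 94.7, 92.7 and 81.4 CPM in control pups. All 3 stressed males were below all 3 control males, and the female groups overlapped.

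RP23-8J15.4 had 40.5, 85.2 and 16.3 CPM in stressed males, against 100.1, 95.3 and 98.0 CPM in control males. The female values were 95.02, 84.2 and 102 CPM in stressed and 84.7, 76.7 and 84.1 CPM in control pups. The male groups did not overlap, with stressed male 2 the nearest to the controls.

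RP23-8J15.3, the ATP synthase copy, had 55.7, 96.6 and 21.5 CPM in stressed males, against 117, 110 and 131 CPM in control males. It had 114, 93.4 and 116 CPM in stressed females, against 94.1, 86.8 and 97.5 CPM in control females. Here too the male groups did not overlap and the female groups did.

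Of the complex I copies, RP23-8J15.5 had 3.77, 9.72 and 2.16 CPM in stressed males, against 10.6, 10.9 and 8.91 CPM in control males. Its female values were 8.81, 8.46 and 13.1 CPM in stressed pups and 8.92, 9.06 and 7.26 CPM in control pups. Stressed male 2 lay within the control males, and this row rested on 34 reads in stressed male 3.

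RP23-8J15.7 had 27.3, 21.9 and 11.3 CPM in stressed males, against 57.0, 30.3 and 45.9 CPM in control males. It had 20.9, 25.1 and 31.3 CPM in stressed females, against 21.2, 30.7 and 20.7 CPM in control females. Unlike the other copies it was low in stressed male 2 as well, and its control males stood above most female libraries.

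**Figure D3:**
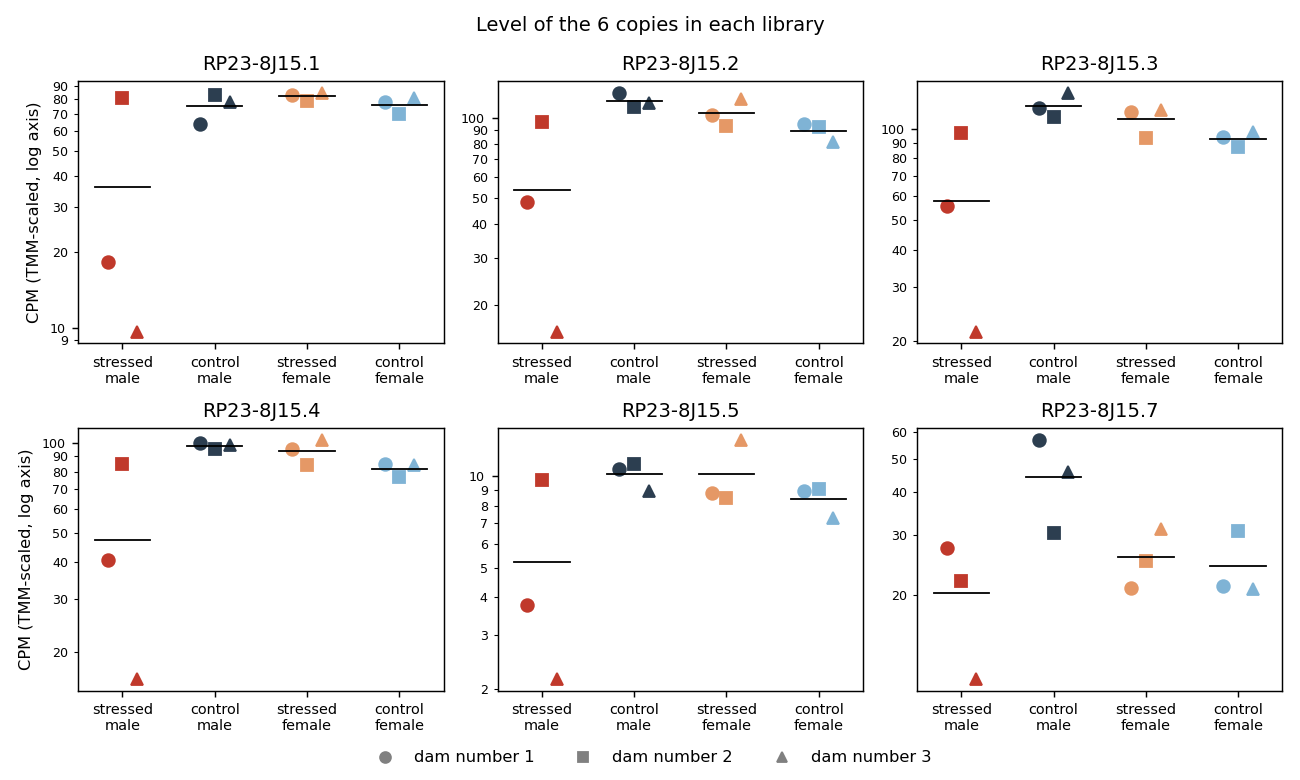
TMM-scaled CPM (log axis) of the 6 copies in each library, by group, with symbols for the dam number and a line at the group mean (n = 3). In 5 of the 6 rows stressed males 1 and 3 are the 2 lowest of the 12 libraries, and in RP23-8J15.7 stressed male 3 is the lowest.

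In females, whose values did not choose the rows, no copy passed the test of stressed against control pups. The changes were between 0.09 and 0.27 (log2, stressed minus control) in all 6 rows. RP23-8J15.5 had the largest, 0.27 ± 0.41 (SE), and RP23-8J15.1 had 0.11 ± 0.54. DESeq2 and limma-voom called 0 of the 6 as well. The adjusted p was 1 for each row in edgeR's quasi-likelihood test with Benjamini-Hochberg adjustment over 16102 genes. In that comparison 0.0% of genes tested passed, 48 genes had an unadjusted p under 0.05, and the female groups of none of the 6 rows were apart, against 2.49% of genes apart with stressed lower and 3.07% with stressed higher. The standard errors were 0.32 to 0.54 in the fit of all 4 groups, which share 1 estimate of spread with the scattered stressed males. In a fit of the 6 female libraries alone they were 0.09 to 0.20, and the edgeR adjusted p was again 1 for each row. In the authors' deposited table the log2 changes of these 6 rows in females ran from 0.05 to 0.16, with adjusted p-values of 1.

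The comparison of males with females includes the stressed males whose levels chose the rows, so it is a description and no p of a copy is given. RP23-8J15.1 averaged 55.7 ± 33.1 CPM in males and 79.1 ± 5.24 CPM in females (SD, n = 6 each), a log2 difference of -0.60 ± 0.38 (SE). RP23-8J15.7 was the one row higher in males, with 32.3 ± 16.6 CPM in males and 24.97 ± 4.93 CPM in females (SD, n = 6 each) and a log2 difference of 0.26 ± 0.22 (SE). The other 4 had log2 differences between -0.36 and -0.27. edgeR, DESeq2 and limma-voom called 0 of the 6, and nothing is read from that count for the same reason. Of all genes 0.0497% passed in edgeR, 8 of 16102, with 1929 at an unadjusted p under 0.05, and male and female levels overlapped in all 6 rows, against 0.143% of genes apart with males lower and 0.112% with males higher.

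Leaving out stressed male 2 changed the sex comparison, and leaving out any other single library did not change the number of copies called, which was 0. Without stressed male 2, the log2 differences of males from females were -1.27 for RP23-8J15.1, -0.72 for RP23-8J15.4 and -0.73 for RP23-8J15.5. In that fit 3 of the 6 copies and 8.44% of all genes, 1384 of 16389, were past the threshold, and nothing is read from the copies' count, since the stressed males left in it are those whose low levels chose the rows. Without both stressed males 1 and 3, RP23-8J15.2, RP23-8J15.3, RP23-8J15.4 and RP23-8J15.5 were 0.06 to 0.13 (log2) higher in males. RP23-8J15.7 was 0.32 higher in males in that fit, and RP23-8J15.1 had -0.02.

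In males, where the rows were noticed, the levels of stressed pups were lower in all 6 rows, and this is given with no test. The log2 changes were -1.05 for RP23-8J15.1, -1.11 for RP23-8J15.2, -1.04 for RP23-8J15.3, -1.04 for RP23-8J15.4, -0.95 for RP23-8J15.5 and -1.13 for RP23-8J15.7, with standard errors between 0.32 and 0.55. Their median was -1.05, against 0.01 over all 16102 genes. The 12 mitochondrial genes that passed the filter were lower in stressed males too, with a median of -0.95. Over all genes 0.0% passed in this contrast, 1028 had an unadjusted p under 0.05, and 2.95% had all stressed males below all control males, as 4 of the 6 copies had. None of the copies had all stressed males above all control males, as 2.72% of genes had. In the authors' deposited table the male log2 changes of the 6 rows ran from -0.73 to -0.43, with adjusted p-values of 0.99993. In whole tissue, fewer cells of a type and less RNA per cell cannot be told apart.

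**Figure D4:**
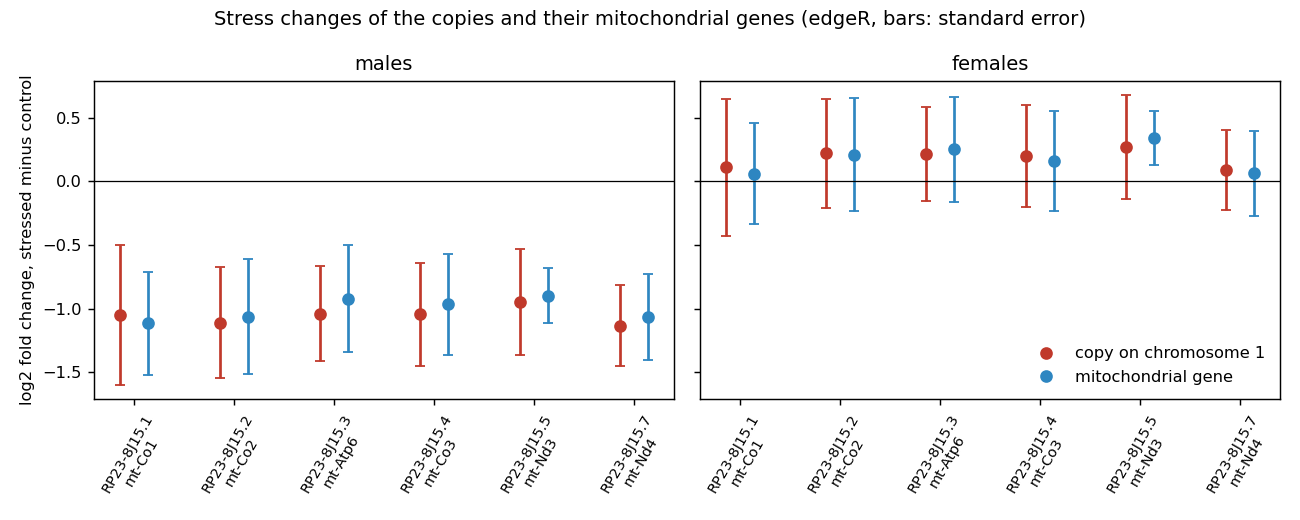
Log2 fold change, stressed minus control, of the 6 copies (red) and of their mitochondrial genes (blue) in males and in females, with bars for the standard error of the fit (n = 3 against 3). In males all 12 values lie between -1.13 and -0.90, and in females all lie between 0.06 and 0.34.

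In 5 of the 6 rows the male difference rested on stressed males 1 and 3. With both left out, so that stressed male 2 stood alone against 3 controls and was assumed to vary like the other groups, the median over the 6 rows was -0.22. The log2 change of RP23-8J15.7 was then still -1.0, and those of the other 5 lay between -0.29 and 0.12. The median over the 6 rows was -0.64 without stressed male 3 alone and -1.79 without stressed male 2. Leaving out control male 3 gave -1.04, and leaving out both pups of control dam 3, the libraries with upper intestinal markers, gave -1.04 too. The same 2 stressed males had the lowest mitochondrial shares and 2 of the 3 highest Yam1 shares of all libraries, and the part of either in the male values was not tested.

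The copies were not equally low within these libraries. In stressed male 1 RP23-8J15.1 stood at 24.3% of the mean of the control males, RP23-8J15.5 at 37.2%, RP23-8J15.4 at 41.4%, RP23-8J15.2 at 41.9%, RP23-8J15.3 at 46.7% and RP23-8J15.7 at 61.6%. In stressed male 3 the same rows stood at the ends, with 12.9% for RP23-8J15.1 and 25.5% for RP23-8J15.7. Stressed male 2 had 107% of the control mean for RP23-8J15.1 and 81.1% to 95.9% for RP23-8J15.2, RP23-8J15.3, RP23-8J15.4 and RP23-8J15.5, but 49.4% for RP23-8J15.7.

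The stress change in males minus that in females had a median of -1.23 (log2) over the 6 rows, with values from -1.33 for RP23-8J15.2 to -1.16 for RP23-8J15.1. It uses the male values that drew attention to the rows and has no test here. Without stressed males 1 and 3 its median was -0.44.

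Set against their mitochondrial genes, RP23-8J15.2, RP23-8J15.3 and RP23-8J15.4 moved in near proportion. RP23-8J15.2 had between 0.893 and 0.977 reads per read of mt-Co2 in all 12 libraries, while its own CPM varied 7.81-fold. In stressed males the ratio was 0.928, 0.910 and 0.977, against 0.947, 0.940 and 0.966 in control males, and the groups overlapped. RP23-8J15.4 had 0.883 to 1.04 reads per read of mt-Co3, and RP23-8J15.3 had 1.504 to 2.01 reads per read of mt-Atp6. In all 12 libraries the row named as the nuclear copy of mt-Atp6 thus held more reads than mt-Atp6 itself, with 23261 against 13869 in total. The standard deviation of the log2 ratio over the libraries was 0.0452 for RP23-8J15.2, 0.0684 for RP23-8J15.4 and 0.117 for RP23-8J15.3, against 0.708 to 0.824 for the log2 CPM of these rows.

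The other 3 copies followed their genes less closely. Over the 12 libraries the ratio varied 3.51-fold for RP23-8J15.5, more than the CPM of mt-Nd3 itself (2.53-fold), 2.64-fold for RP23-8J15.1 and 1.61-fold for RP23-8J15.7. RP23-8J15.5, with its substitution at the third base, had 0.258, 0.422 and 0.131 reads per read of mt-Nd3 in stressed males, against 0.322, 0.350 and 0.240 in control males. In females the ratio was 0.333 to 0.381 in stressed pups and 0.320 to 0.459 in control pups. In stressed male 3 the copy stood at 21.3% and mt-Nd3 at 49.0% of its control male mean. RP23-8J15.1 had 3.40, 5.81 and 2.49 reads per 1000 reads of mt-Co1 in stressed males, against 5.13, 4.60 and 4.01 in control males. Both ratios were lowest in stressed male 3. RP23-8J15.7 had 16.2, 10.6 and 17.1 reads per 1000 reads of mt-Nd4 in stressed males, against 15.66, 12.4 and 14.7 in control males, and here stressed male 3 was the highest library. The ratios to mt-Co1 and mt-Nd4 are to all reads of those genes, whose parts outside the copied stretch were not counted apart.

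**Figure D5:**
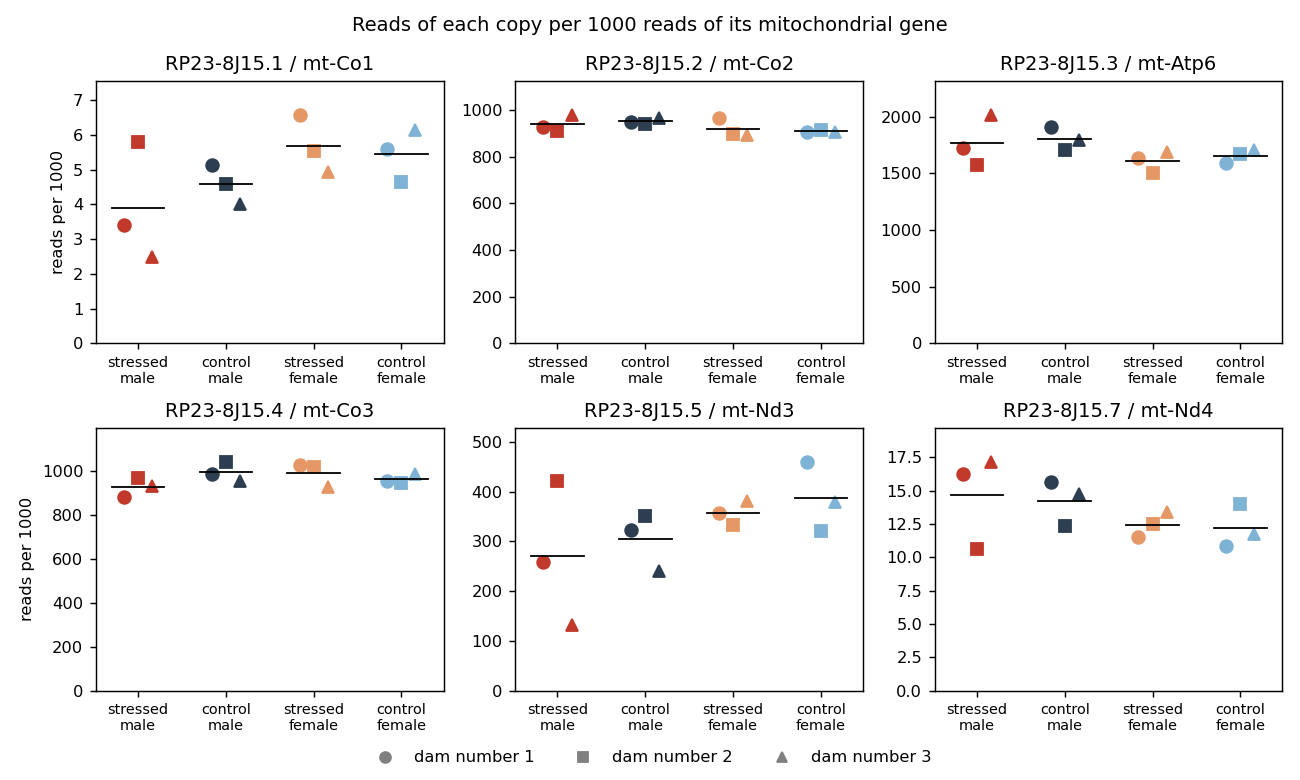
Reads of each copy per 1000 reads of its mitochondrial gene in each library, by group, with symbols for the dam number and a line at the group mean (n = 3). The ratio to mt-Co2 stays between 893 and 977 in all libraries, and that of RP23-8J15.5 to mt-Nd3 runs from 131 in stressed male 3 to 459 in control female 1.

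Summed over RP23-8J15.2, RP23-8J15.3, RP23-8J15.4 and RP23-8J15.5, the copies of whole genes, there were 0.917 to 1.09 reads in the copies per read in the 4 mitochondrial genes, with a median of 1.04. Stressed males had 1.02, 1.03 and 0.917 and control males 1.08, 1.07 and 1.07, so that these sums did not overlap in males. Taken singly, the male ratios of each of the 4 copies overlapped. The sum also weighs each pair by its reads. Of the mitochondrial reads in it, mt-Nd3 held 260 of 959 in stressed male 3 and 608 of 6046 in control male 1. RP23-8J15.5 had 0.131 reads per read of mt-Nd3 in stressed male 3. No share over other genes was computed for this separation. Stressed females had 1.09, 1.02 and 1.01 and control females 1.04, 1.01 and 1.08. Given for males with no test, the ratio of the group medians was 0.954. Gm10222 lay the other way, on few reads. It had 1.205, 1.091 and 1.148 reads per read of mt-Nd4l in stressed males, against 0.935, 1.07 and 0.813 in control males. The nearest values came from 96 and 88 reads in stressed male 2 and 119 and 111 reads in control male 2. This difference was not tested.

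Of the 6 copies RP23-8J15.5 had the fewest reads, 2105 in all, and each other nuclear copy in the table had fewer than that. A search of the annotated transcripts found 16 further copies, of which 12 were in the table and 5 of those had 0 reads in all libraries. The most read were Gm13340, a copy of mt-Co1 with 97.6% identity, with 1654 reads, Gm10222 of the same chromosome 1 stretch with 1428, and Gm13341, a copy of mt-Co2 with 95.9% identity, with 637. Gm13339 had 66 reads and Gm11408 had 14. Gm10222, which has no difference from mt-Nd4l, had a log2 change of -0.76 ± 0.35 (SE) in males and -0.06 ± 0.35 (SE) in females, and it did not pass the test in females or between sexes.

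Besides Gm10222, the tested genes around the copies had male log2 changes between -0.09 and 0.30. Lmbrd1, whose product exports vitamin B12 from lysosomes, begins 62433 bases away and had log2 changes of -0.09 ± 0.12 (SE) in males and 0.02 ± 0.12 (SE) in females. Fam135a, Col9a1, which encodes a collagen chain, and Bai3, an adhesion receptor, had male log2 changes of -0.02, 0.07 and 0.30. The Pearson r of these 4 genes with the summed level of the copies lay between -0.23 and 0.03 over the 12 libraries, as a description. Col19a1, the gene nearest to the copies besides Gm10222 and RP23-8J15.8, had 4 reads in all.

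Ranked by Pearson r with the summed level of the copies over 12 libraries, mt-Co3, mt-Co2, mt-Atp6, mt-Cytb and mt-Nd2 held ranks 1 to 5 of 16096 rows, with r from 0.974 to 0.997. mt-Cytb and mt-Nd2 lie outside the copied stretch. Other mitochondrial rows ranked lower: mt-Co1 had rank 21, mt-Nd4 56 and mt-Nd1 113, while mt-Nd3 (r = 0.715), mt-Nd6 (r = 0.694), mt-Nd5 (r = 0.353) and mt-Nd4l (r = 0.339) had ranks 980, 1148, 4488 and 4639. mt-Nd3 and mt-Nd4l lie inside the stretch. Ranks 6 to 10 were held by Spr (sepiapterin reductase, of cofactor synthesis), Slc9a3r2 (a scaffold of membrane transporters), Fth1 (the ferritin heavy chain), Cox7a2l (a respiratory supercomplex factor) and Szrd1, with r between 0.957 and 0.962. Among the 10 libraries left without stressed males 1 and 3, r was 0.795 for Slc9a3r2 but 0.242 to 0.399 for Spr, Fth1, Cox7a2l and Szrd1, so those values rested on these libraries. For mt-Co3, mt-Co2 and mt-Atp6 it was then 0.924, 0.889 and 0.765. Outside the stretch it was 0.864 for mt-Nd2, 0.81 for mt-Cytb, 0.746 for mt-Nd1, 0.668 for mt-Nd6 and 0.644 for mt-Nd5. For mt-Nd3 and mt-Nd4l, inside the stretch, r was 0.814 and 0.542. Rows inside the stretch can share reads with the copies, and all libraries share the scaling of CPM to their totals.

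Nuclear genes that copy, maintain or transcribe mitochondrial DNA or handle its RNA gave no call. Of 36 listed genes 29 were found in the table by the listed symbol, and other symbols of the remaining genes were not searched. Of these 29, 0 passed in females, between sexes or in males, where over all genes 0.0%, 0.0497% and 0.0% passed. At an unadjusted p under 0.05 in edgeR there were 0, 1 and 1 of the 29, against 48, 1929 and 1028 of the 16102 genes, and DESeq2 and limma-voom also called 0. Their median log2 change was 0.00 in females and -0.03 in males, and 17 of the 29 were lower and 12 higher in stressed males. Polg, the mitochondrial DNA polymerase, had a mean of 82.0 ± 16.8 CPM (SD, n = 3) over stressed males and 75.3 ± 11.2 CPM (SD, n = 3) over control males. Lrpprc, which stabilises mitochondrial messenger RNA, had 80.4 ± 14.8 CPM (SD, n = 3) over stressed and 69.5 ± 19.9 CPM (SD, n = 3) over control males. Hsd17b10, a subunit of mitochondrial RNase P, had 52.3 ± 6.48 CPM (SD, n = 3) over stressed and 56.2 ± 4.72 CPM (SD, n = 3) over control males.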

How the data were processed

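The authors deposited raw read counts per gene, FPKM values, and a table of their own comparisons with log2 fold changes and p-values, per the file headers. Builds GRCm38 and mm10 and the tools HTSeq 0.6.1, STAR 2.5, TopHat, edgeR 3.16.5 and DESeq2 come from the submitters' processing notes. Strand and the handling of reads with several alignments are not given in the sources used here. Each deposited FPKM equalled the count per length and library total within 1e-06. Members and gene lists were chosen with earlier results of these data known.

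Counts were tested with edgeR 4.0.16 under R 4.3.3 (TMM scaling, filterByExpr, quasi-likelihood F test, 1 fit of 4 groups with 8 residual degrees of freedom, threshold 0.05 on Benjamini-Hochberg adjusted p over 16102 genes), a step tested on simulated data. Copies were aligned to mitochondrial transcripts of GENCODE M21 (GRCm38) with blastn 2.17.0, and the files' gene lengths equalled the transcript lengths. A match had to cover 50% of a row for it to count as a further copy. The floor of 3 counts covers counting error only. The standard errors of log2 changes include the spread between pups that the fit estimated.

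Genes named were the 7 rows, their mitochondrial genes, tested neighbours within 500 kb of the 7 rows, and the 5 further copies with most reads. Also named were the 5 rows most like the copies by Pearson r of log2 CPM (prior count 2). The 3 most abundant genes of the list on mitochondrial DNA and RNA were named too. Gm10222 is both a neighbour and a further copy. Col19a1 was too low to be tested and was added after its count was seen. By the labels a dam number joins littermates and does not pair stressed with control dams. Deviations of littermates from their group means correlated between -0.362 and 0.545. Counts of replicates differed beyond sampling noise. Alternatives were RLE scaling, scaling without the copies and mitochondrial rows, other filters (none, or a mean of 1 CPM), DESeq2 1.42.0, limma 3.58.1 with voom and on log2(FPKM + 1) or log2(FPKM + 0.1), the dam (between sexes) or the dam number (within a sex) as a block, each sex alone, and libraries left out. Leaving out stressed males 1 and 3 together was chosen after the data were seen.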

Additional observations from a re-analysis of the deposited data

How the results depend on the processing

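In females 0 copies and 0 genes passed under any alternative run, and RP23-8J15.7 alone changed direction: its log2 change ran from -0.07 to 0.28 as libraries were left out 1 at a time and was -0.01 without both pups of control dam 3. In the sex comparison the number of genes called was 18 with DESeq2, 5 without the 3 male libraries rich in Yam1, and 8 to 1384 as single libraries were left out (1384 without stressed male 2, 8 or 9 otherwise), with 0 to 3 copies among them. Without those 3 libraries RP23-8J15.1, RP23-8J15.2, RP23-8J15.3, RP23-8J15.4 and RP23-8J15.5 had log2 differences of 0.03, 0.10, 0.11, 0.05 and 0.09, males minus females. Without stressed males 1 and 3 RP23-8J15.2, RP23-8J15.3, RP23-8J15.4 and RP23-8J15.5 had 0.13, 0.10, 0.06 and 0.10, while RP23-8J15.1 had -0.02 and RP23-8J15.7 had 0.32. In males 0 genes passed, or 0 to 1 with a library left out, and the median of the 6 copies ran from -1.79 to -0.64, was -0.20 without the 3 Yam1-rich libraries and lay between -1.30 and -1.04 under the other scalings, filters and tools. With the dam number as a replicate block in the 6 male libraries, where a number joins unrelated dams, it was -1.31. With the dam itself as a replicate block, which pairs littermates, the sex comparison called 7 genes and 0 copies. Neither block changed another call. For the 4 whole copies, the ratio of group medians in males, stressed over control, was 0.884 with all mitochondrial rows as denominator. This is not the ratio to their own genes given above, and the male groups overlapped under it. To their own genes, the female ratio was 0.963 to 1.01 as single libraries were left out. The causes of these shifts were not tested. Depth limits RP23-8J15.8, with 9 reads in all, and RP23-8J15.5 in stressed male 3.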
